A study of Mus musculus with 2 samples.

Results

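Toll-like receptors (TLRs) and NOD-like receptors (NLRs) are the germline-encoded sensors with which cells detect microbial products and cell damage. The 43 genes described here are the rows of the deposited gene table whose symbol begins with Tlr and a digit, Nlrp, Nlrc or Naip, or is Nod1, Nod2, Nlrx1 or Ciita, out of 23997 gene rows. One further Nlrp row was left out by that rule. The set holds 12 TLR genes, 19 Nlrp rows, 6 genes of the Naip and Nlrc4 group, and 6 others (Nod1, Nod2, Nlrc3, Nlrc5, Nlrx1 and Ciita). The RNA was sequenced, after an mRNA library preparation, from medullary epithelial cells of the mouse thymus (mTECs) that carry high MHC class II, sorted from the thymus of C57BL/6 mice, in 1 library from Aire-/- mice and 1 library from wild-type mice. They are called the Aire-KO and the WT library by their labels. Cells of each genotype came from a pool of mice, and how many mice, of what age and sex, carrying which Aire allele, is not stated in the labels. Because each genotype has a single library, the differences below have no replicate check and could not be tested.

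Medullary thymic epithelial cells display self-proteins of many peripheral organs to maturing T cells, and Aire is the nuclear regulator behind much of that display. TLRs bind microbial ligands at the cell surface or in endosomes and signal through adaptors such as MyD88 and TRIF. NLRs are cytosolic proteins with a nucleotide-binding NACHT domain and leucine-rich repeats. Some of them build inflammasomes that activate caspase-1, NOD1 and NOD2 signal through the kinase RIPK2, and CIITA and NLRC5 act in the nucleus as coactivators of MHC class II and class I genes. Several rodent Nlrp genes are best known from oocytes and early embryos.

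Expression is given as deposited, in FPKM, a fragment count scaled by transcript length and by sequencing depth. From the steps of low FPKM values the libraries were estimated to hold about 55000000 fragments (Aire-KO) and 47900000 fragments (WT). Of 15 mTEC markers, 14 lay within 2-fold between the libraries, as did all 7 cortical epithelial markers. Such a ratio does not show which cells a library held. The median level of the mTEC markers was 295.7 FPKM in the Aire-KO library and 220.6 FPKM in the WT library. For the cortical markers it was 33.9 FPKM and 20.1 FPKM, in the same order. The class II gene H2-Aa stood at 11948 FPKM in the Aire-KO library and 8398 FPKM in the WT library. The exception among the mTEC markers was Aire itself, at 640.2 FPKM in the Aire-KO library and 220.6 FPKM in the WT library. An FPKM over the whole transcript does not isolate a deleted part, so this value does not check the genotype label. In bulk RNA, fewer cells of a type and less RNA per cell cannot be told apart.

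Of the 43 genes, 24 reached a mean of 0.5 FPKM over both libraries. A gene was called lower or higher in the Aire-KO library when log2((Aire-KO + 0.1)/(WT + 0.1)), with values in FPKM, passed a 2-fold difference, a rule on size alone that tests nothing. By this rule 9 receptor genes were lower, against 20.5% of all 15906 genes past the same minimum. These were Naip1, Naip5, Naip6, Nlrp6, Nlrp9b, Nlrp10, Nod1, Tlr2 and Tlr5. Another 3, Naip2, Tlr9 and Ciita, were higher, against 7.09% of all genes, and 12 were neither. The median log2 ratio of the 24 genes was -0.48, beside 0.05 for all genes.

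The minimum is set on the mean of both libraries. Of the 9 lower genes, 5 (Naip1, Naip6, Nlrp9b, Nod1 and Tlr5) had an Aire-KO value below 0.5 FPKM and so passed it through the WT library, where they were high, and their calls give no support of their own. The same holds for lower genes of the lists and markers below whose Aire-KO value was under 0.5 FPKM. In 21 of the 24 receptor genes the 95% counting interval of the ratio left out 0. These intervals rest on fragments estimated from FPKM, cover counting error only, and say nothing of the spread between mice. They and the log2 ratios printed with them use FPKM without the added 0.1.

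**Figure D1:**
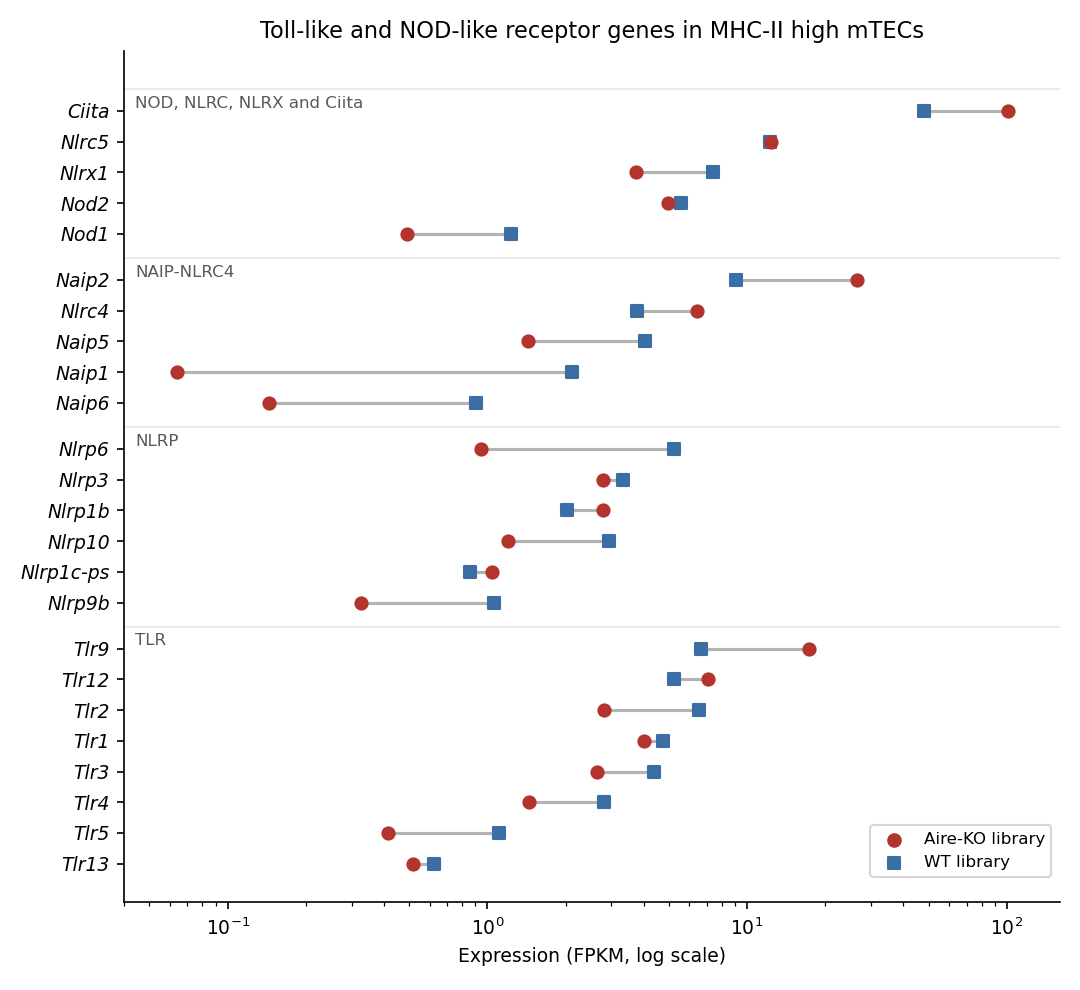
Expression of the 24 receptor genes past the minimum mean of 0.5 FPKM, in FPKM on a log scale, by family. Circles are the Aire-KO library and squares the WT library (1 library each). Ciita is the most abundant in both, at 100.7 FPKM in Aire-KO and 48.1 FPKM in WT, and Naip1 has the widest gap.

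**Figure D2:**
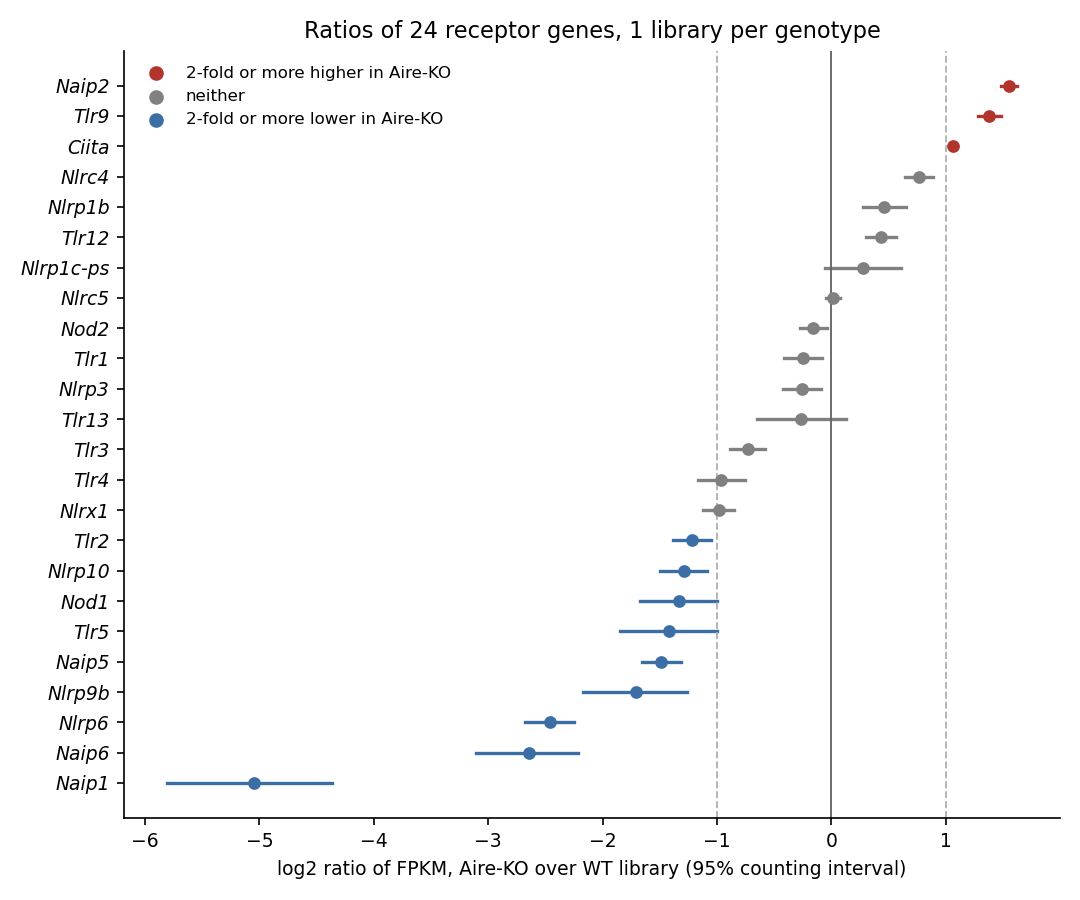
log2 ratio of FPKM, Aire-KO over WT library, without a pseudocount, for the same 24 genes. Bars are 95% counting intervals and dashed lines mark a 2-fold difference. The points run from -5.04 (Naip1) to 1.55 (Naip2), both Naip genes.

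The widest contrast within the set was in the Naip genes, which lie side by side on chromosome 13. NAIP proteins bind bacterial flagellin or type III secretion proteins and recruit NLRC4 into an inflammasome. In the mouse, NAIP2 recognises the secretion rod protein, NAIP1 the needle protein, and NAIP5 and NAIP6 flagellin. Naip2 (mm10 chr13:100144063-100202122) had 26.6 FPKM in the Aire-KO library and 9.06 FPKM in the WT library, 2.93-fold higher (log2 ratio 1.55, counting interval 1.48 to 1.62). Naip1 (chr13:100407770-100452864) had 0.0640 FPKM in the Aire-KO library and 2.11 FPKM in the WT library. Its values rest on an estimated 18 fragments in the Aire-KO library and 522 in the WT library, 33-fold lower in the Aire-KO library with a log2 interval of -5.81 to -4.37.

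The flagellin sensors went the same way as Naip1. Naip5 (chr13:100211740-100247336) had 1.44 FPKM in the Aire-KO library and 4.03 FPKM in the WT library, 2.80-fold lower (log2 ratio -1.49, -1.66 to -1.32). Naip6 (chr13:100281121-100317688) had 0.144 FPKM in the Aire-KO library and 0.902 FPKM in the WT library, 6.27-fold lower (-2.65, -3.11 to -2.21). Naip7, annotated at the same locus as Naip6, was listed at 0 in the Aire-KO library and at 0.0634 FPKM in the WT library. Naip2 thus made up 94.2% of the summed FPKM of the Naip genes in the Aire-KO library and 56.1% in the WT library, while the sum itself was 28.2 FPKM and 16.2 FPKM.

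Nlrc4, the shared partner of the NAIP proteins, lies on chromosome 17. It had 6.42 FPKM in the Aire-KO library and 3.77 FPKM in the WT library, 1.70-fold higher and under the 2-fold rule (log2 ratio 0.77, 0.64 to 0.89).

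Because the Naip genes are recent copies, the reads that could belong to more than 1 gene were counted. Of all windows of 100 bases, the read length, in the GENCODE transcripts of Naip2, 4.55% also occurred in a transcript of another gene. The share was 13.9% for Naip1, 16.2% for Naip5 and 6.37% for Naip6. In each of these genes more than 80% of windows were therefore its own by exact match, although how the authors' tool split the shared reads was not examined. Windows that differ by a few bases were not counted as shared. No GENCODE transcript was matched to Naip7, so its overlap with Naip6 was not counted.

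The windows just upstream of the annotated starts are shown because Naip2 went one way and its copies the other. They are the 150 bases before each RefSeq start on GRCm38.p6, the mm10 assembly, all on the minus strand and written 5′ to 3′. Capitals mark every run of 10 or more bases that Naip1, Naip2 and Naip5 share in the 250 bases upstream.
Naip2, chr13:100202123-100202272: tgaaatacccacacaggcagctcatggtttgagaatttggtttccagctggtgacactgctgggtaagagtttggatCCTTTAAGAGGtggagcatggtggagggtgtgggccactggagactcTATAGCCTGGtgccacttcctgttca
Naip1, chr13:100452865-100453014: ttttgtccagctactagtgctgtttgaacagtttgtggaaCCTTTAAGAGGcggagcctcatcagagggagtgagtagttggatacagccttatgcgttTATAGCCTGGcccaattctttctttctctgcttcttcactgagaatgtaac
Naip5, chr13:100247337-100247486: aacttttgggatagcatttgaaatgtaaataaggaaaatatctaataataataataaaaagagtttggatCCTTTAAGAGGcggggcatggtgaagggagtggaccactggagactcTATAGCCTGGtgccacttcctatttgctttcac
Naip6, chr13:100316617-100316766: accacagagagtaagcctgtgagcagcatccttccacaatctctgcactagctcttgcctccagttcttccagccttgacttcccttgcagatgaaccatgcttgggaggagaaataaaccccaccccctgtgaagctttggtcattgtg
Both shared runs, CCTTTAAGAGG and TATAGCCTGG, stood in the same order in the 3 windows and were absent from that of Naip6. Over all 32851 upstream windows of 250 bases in the RefSeq table, CCTTTAAGAGG occurred in 26 and TATAGCCTGG in 10, on the gene's own strand. Naip2 and Naip5 were identical at 56.7% of aligned positions, gaps included, over these 250 bases, Naip2 and Naip1 at 51.0%, and Naip2 and Naip6 at 46.9%. The runs were picked because Naip1, Naip2 and Naip5 share them, so their presence in these 3 windows was fixed in advance. Naip6 had no part in that choice. Why Naip2 was higher in the Aire-KO library and Naip1 and Naip5 lower was not tested. The Naip6 window lies inside the deposited span of Naip6, so it is upstream of the RefSeq start and not of the outermost end of that locus. The RefSeq starts of Naip2 and Naip5 were not matched exactly by a GENCODE transcript. In GENCODE, Naip2 starts close by at position 100202092, and Naip5 farther downstream at 100246323. The Naip5 window thus rests on the RefSeq annotation alone.

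**Figure D3:**
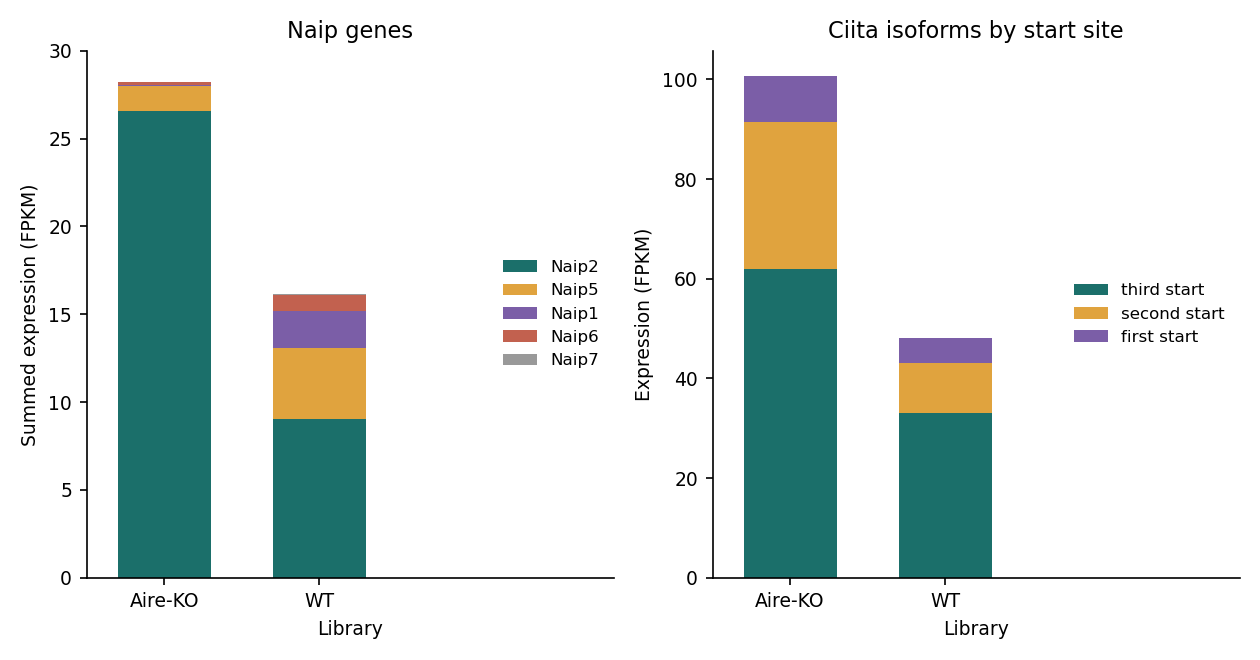
Left, FPKM of the 5 Naip genes stacked by library. Right, FPKM of the 3 Ciita isoforms stacked by library and ordered by start site along the chromosome, the first start being the most upstream. Naip2 fills 94.2% of the Aire-KO bar and 56.1% of the WT bar, while the share of the second Ciita start is 29.4% in Aire-KO and 21% in WT.

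Ciita (chr16:10480072-10527564), the NLR that switches on MHC class II genes, was the most abundant receptor-family gene in both libraries. It had 100.7 FPKM in the Aire-KO library and 48.1 FPKM in the WT library, 2.09-fold higher (log2 ratio 1.07, 1.03 to 1.10). This lies just past the 2-fold rule, and with both libraries scaled to the same summed FPKM the log2 ratio was 0.99, just short of it. Mouse Ciita is known to be read from alternative promoters, and thymic epithelium is known for the most downstream of them.

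The isoform table held 3 Ciita transcripts, which start at positions 10480059, 10488279 and 10489781 of chromosome 16 in GENCODE. The most downstream start, 9722 bases from the first, belonged to the most abundant isoform. That isoform, NM_001243761, had 61.9 FPKM in the Aire-KO library and 33.1 FPKM in the WT library, 61.5% and 68.8% of the gene. NM_007575, which starts 1502 bases upstream of it, had 29.6 FPKM in the Aire-KO library and 10.1 FPKM in the WT library, 29.4% and 21% of the gene. NM_001243760, from the most upstream start, had 9.16 FPKM in the Aire-KO library and 4.90 FPKM in the WT library, 9.10% and 10.2% of the gene. All 3 isoforms had higher values in the Aire-KO library, of which NM_007575 alone passed 2-fold, and it had the largest log2 ratio with 0.1 FPKM added, 1.54, against 0.90 and 0.89 for NM_001243761 and NM_001243760. How precisely the reads were divided among these overlapping isoforms was not measured.

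All 8 measured class II presentation genes, on which CIITA acts, had higher values in the Aire-KO library, 1 of them by the 2-fold rule, and their median log2 ratio was 0.51. H2-Ob, a chain of the peptide-exchange modulator H2-O, had 85.1 FPKM in the Aire-KO library and 39.3 FPKM in the WT library. Of 7 genes of proteins that work with CIITA on these promoters, 1 was higher and none lower (median 0.40). Creb1, a factor that binds class II promoters, had 12.4 FPKM in the Aire-KO library and 4.98 FPKM in the WT library. Rfx5, the DNA-binding partner of CIITA, had 22.5 FPKM in the Aire-KO library and 13.8 FPKM in the WT library. Cd74 had no usable estimate and is not in the count.

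Nlrc5 (chr8:94472763-94527272), the class I coactivator, had 12.4 FPKM in the Aire-KO library and 12.3 FPKM in the WT library. Its log2 ratio of 0.01 had a counting interval of -0.05 to 0.07, the narrowest of the 3 intervals that span 0 among the 24 genes. None of 11 class I and peptide-loading genes was lower or higher, with a median log2 ratio of -0.17. B2m, the light chain of class I, had 9659 FPKM in the Aire-KO library and 10866 FPKM in the WT library.

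Nod1 and Nod2 bind fragments of bacterial peptidoglycan. Nod2 (chr8:88647347-88688474) had 4.97 FPKM in the Aire-KO library and 5.55 FPKM in the WT library (log2 ratio -0.16, -0.28 to -0.04). Nod1 (chr6:54923942-54972612) was lower, at 0.492 FPKM in the Aire-KO library and 1.24 FPKM in the WT library (-1.33, -1.68 to -1.0). Nod1 was also the only one of 8 receptor genes with several isoforms and a value in both libraries whose isoform shares moved by 25 percentage points or more, a shift seen in 20% of all 4612 such genes. Its isoform NM_001171007 made up 54.7% of the gene in the Aire-KO library and was listed at 0 in the WT library, on an estimated 57 fragments.

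Nlrx1, a mitochondrial NLR, lay just outside the rule, with 3.74 FPKM in the Aire-KO library and 7.41 FPKM in the WT library (log2 ratio -0.98, -1.12 to -0.85). Nlrc3, known as a damper of T cell and sensor signalling, had 0.0807 FPKM in the Aire-KO library and 0.302 FPKM in the WT library, below the minimum.

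Genes of the other inflammasome sensors split. Nlrp6 (chr7:140920902-140929192), known from gut epithelium, was 5.51-fold lower, at 0.947 FPKM in the Aire-KO library and 5.21 FPKM in the WT library (log2 ratio -2.46, -2.68 to -2.25). Nlrp10 (chr7:108921853-108930158), known from skin and lacking leucine-rich repeats, had 1.20 FPKM in the Aire-KO library and 2.94 FPKM in the WT library (-1.29, -1.50 to -1.09). Nlrp3 (chr11:59542686-59566956), the sensor of membrane damage and ion flux, had 2.80 FPKM in the Aire-KO library and 3.34 FPKM in the WT library (-0.25, -0.42 to -0.09). Nlrp3 was thus close to level between the libraries, where Nlrp6 and Nlrp10 were not.

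Nlrp1b (chr11:71153102-71230733), the sensor cleaved by anthrax lethal factor, had 2.80 FPKM in the Aire-KO library and 2.03 FPKM in the WT library (log2 ratio 0.46, 0.27 to 0.65). The neighbouring pseudogene Nlrp1c-ps had 1.04 FPKM in the Aire-KO library and 0.858 FPKM in the WT library. Nlrp1a, in the same cluster, was below the minimum at 0.0756 FPKM in the Aire-KO library and 0.288 FPKM in the WT library. Fewer than 1% of the 100-base windows of Nlrp1a and Nlrp1b occur in another gene, 0.0818% and 0.0497%.

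Around the inflammasome, 3 of 16 measured partner and output genes were lower and 1 higher, with a median log2 ratio of -0.07. The lower genes were the cytokine genes Il1b (3.56 FPKM in the Aire-KO library and 12.1 FPKM in the WT library), Il1a (0.399 FPKM and 3.85 FPKM) and Il18 (1.48 FPKM and 5.14 FPKM, in the same order). Casp4, which encodes the caspase that senses cytosolic lipopolysaccharide, was higher, at 189 FPKM in the Aire-KO library and 77.8 FPKM in the WT library. The effector genes were abundant in both libraries. Casp1 had 219 FPKM in the Aire-KO library and 113 FPKM in the WT library, Gsdmd, the pore-forming executor, 79.7 FPKM and 65.6 FPKM, and the adaptor gene Pycard 28.6 FPKM and 40.1 FPKM.

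Nlrp genes known mainly from germ cells and embryos had low values in the WT library and smaller ones, or a listed 0, in the Aire-KO library. The 11 genes are Nlrp2, Nlrp4a, Nlrp4b, Nlrp4c, Nlrp4e, Nlrp4f, Nlrp4g, Nlrp9a, Nlrp9b, Nlrp9c and Nlrp14. Only Nlrp9b (chr7:20008023-20062938), also known from intestinal epithelium, reached the minimum, with 0.325 FPKM in the Aire-KO library and 1.06 FPKM in the WT library (log2 ratio -1.71, -2.17 to -1.26). Of the other 10, 8 were listed at 0 in the Aire-KO library, whereas all 10 had a value in the WT library. Nlrp4a, the highest of these in the WT library, was listed at 0 in the Aire-KO library and at 0.280 FPKM in the WT library, an estimated 54 fragments. Nlrp14 was listed at 0 in the Aire-KO library and at 0.204 FPKM in the WT library, an estimated 30 fragments. Nlrp4f had 0.0165 FPKM in the Aire-KO library and 0.152 FPKM in the WT library, and Nlrp4c 0.0161 FPKM and 0.0677 FPKM.

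The remaining genes of this kind, all listed at 0 in the Aire-KO library, ranged in the WT library from 0.0670 FPKM (Nlrp9c) through Nlrp4g (0.0859 FPKM), Nlrp9a (0.115 FPKM), Nlrp4b (0.150 FPKM) and Nlrp4e (0.158 FPKM) to 0.184 FPKM (Nlrp2). For listed zeros with a known transcript length, a count of 0 allows up to 0.0135 to 0.0181 FPKM in the Aire-KO library (3 fragments, counting error only). An exact 0 can also be a failed estimate, so no fold is given.

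Such values are frequent among weakly expressed genes as a whole. Of all genes below a mean of 0.5 FPKM with a value in the WT library, 35.8% were listed at 0 in the Aire-KO library, and of those with a value in the Aire-KO library 11.7% were listed at 0 in the WT library. In 77.4% of all genes below that mean with a value in either library, the Aire-KO value was the lower one. Among the receptor genes it was the lower one in all 18 with a value, 9 of which were listed at 0 in the Aire-KO library and none in the WT library. Besides the genes above these include Nlrp12 (0.00444 FPKM in the Aire-KO library and 0.143 FPKM in the WT library). The last of the 19 rows below the minimum, the pseudogene row Nlrp5-ps, was listed at 0 in both libraries.

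**Figure D4:**
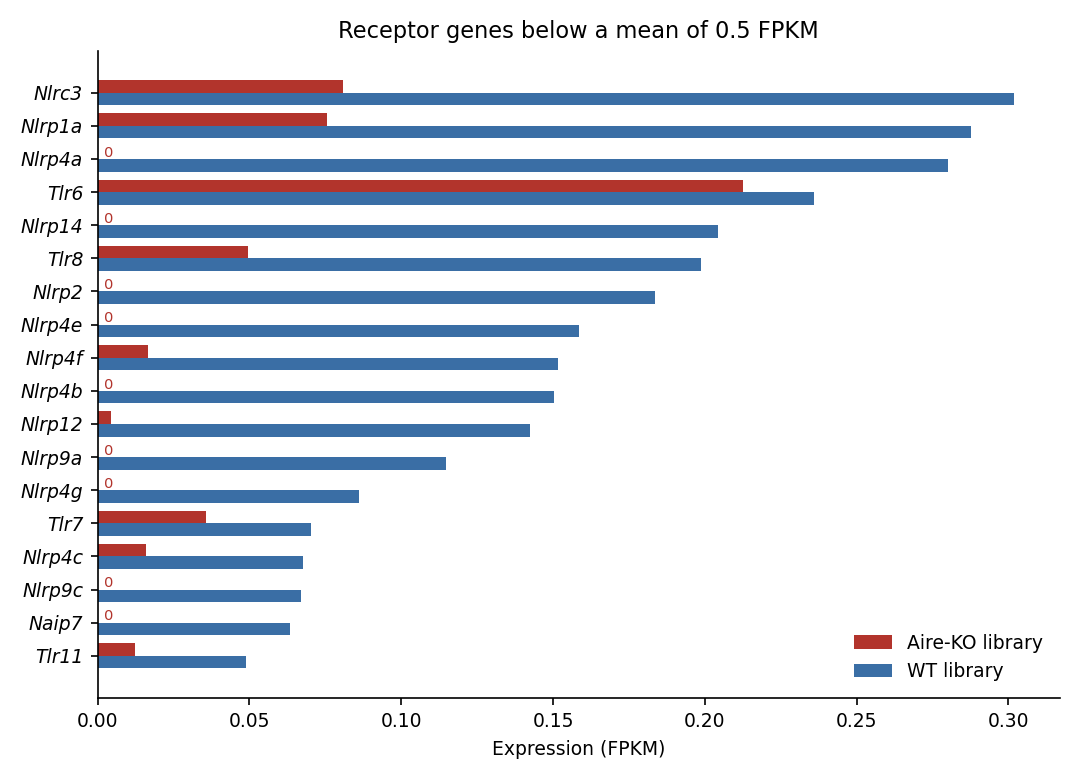
FPKM of the 18 receptor genes with a mean below 0.5 FPKM and a value in the WT library, with the Aire-KO bar above the WT bar for each gene. A red 0 marks 9 genes listed at 0 in the Aire-KO library, and every Aire-KO bar is shorter than its WT bar.

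Other genes of oocytes and early embryos are set beside these. Of 11 measured, 7 were lower and 1 higher, with a median log2 ratio of -2.98. Zp3, a zona pellucida gene, had 0.193 FPKM in the Aire-KO library and 6.41 FPKM in the WT library, Padi6 0.0341 FPKM and 2.22 FPKM, and Khdc3 0.207 FPKM and 6.32 FPKM. The exceptions were Zar1, which was higher at 15.4 FPKM in the Aire-KO library and 7.60 FPKM in the WT library, and Zp2, Tle6 and Sohlh2, which were neither. Gut epithelium is a setting from which Nlrp6, Nlrp9b and the Naip genes are also known. Of 14 measured gut epithelial genes 12 were lower and none higher, with a median log2 ratio of -3.33. Tff3, a trefoil peptide gene of goblet cells, had 5.32 FPKM in the Aire-KO library and 401 FPKM in the WT library, and Fabp2, an enterocyte fatty acid-binding protein gene, 1.23 FPKM and 26.1 FPKM. Naip2 and Nlrc4 had higher values in the Aire-KO library, as did Cdx1 and Cdh17 of the gut list. The oocyte genes Khdc3, Padi6, Zp1, Zp3 and Oosp1 and the gut genes Cdx2, Alpi and Muc2 had Aire-KO values below 0.5 FPKM. They passed the minimum only through the WT library, so the counts and medians of these lists draw in part on genes let in by a high WT value.

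The TLR genes are taken by where the protein acts. All 5 genes of surface receptors, Tlr1, Tlr2, Tlr4, Tlr5 and Tlr6, had lower values in the Aire-KO library. Only 2 of them were lower by the 2-fold rule, and Tlr6 was below the minimum. Among all 23992 genes with an estimate, 10961 had a lower and 9516 a higher value in the Aire-KO library. The summed FPKM of the surface receptor genes was 8.89 in the Aire-KO library and 15.5 in the WT library. Tlr2 (chr3:83836272-83841608), the receptor for bacterial lipoproteins, was lower, with 2.82 FPKM in the Aire-KO library and 6.56 FPKM in the WT library (log2 ratio -1.22, -1.39 to -1.05). Tlr5 (chr1:182954788-182976044), the flagellin receptor, was also lower, with 0.414 FPKM in the Aire-KO library and 1.11 FPKM in the WT library (-1.42, -1.85 to -1.0). Tlr4 (chr4:66827811-66842796), the lipopolysaccharide receptor, lay just short of the rule, with 1.45 FPKM in the Aire-KO library and 2.82 FPKM in the WT library (-0.96, -1.17 to -0.76).

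The partners of TLR2 in the cell membrane differed little. Tlr1 (chr5:64924680-64933558) had 4.0 FPKM in the Aire-KO library and 4.74 FPKM in the WT library (log2 ratio -0.25, -0.41 to -0.08). Its isoform NM_001276445 made up 52.2% of the gene in the Aire-KO library and 31.3% in the WT library. Tlr6 stood at 0.213 FPKM in the Aire-KO library and 0.236 FPKM in the WT library, below the minimum, with an interval that spans 0 (-0.82 to 0.52). Tlr1 and Tlr6 are neighbouring copies, and 8.57% of the 100-base windows of Tlr1 occur in Tlr6.

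Genes of the TLRs that act in endosomes went both ways, with 5 of 7 lower by value in the Aire-KO library and 2 higher. Their summed FPKM was 27.6 in the Aire-KO library and 17.2 in the WT library. Tlr9 alone gave 17.3 FPKM and 6.63 FPKM of these sums. Tlr9 (chr9:106222598-106226876), the receptor for unmethylated CpG DNA, had the highest level of the TLR genes in the Aire-KO library. In the WT library it stood beside Tlr2 at 6.56 FPKM, a gap smaller than the counting error of an estimated 1041 fragments for Tlr9 and 884 for Tlr2. Tlr9 had 17.3 FPKM in the Aire-KO library and 6.63 FPKM in the WT library, 2.60-fold higher (log2 ratio 1.38, 1.28 to 1.48). Tlr9 made up 47.3% of the summed FPKM of the 12 TLR genes in the Aire-KO library and 20.3% in the WT library. Tlr12 (chr4:128615446-128618619), a rodent receptor for protozoan profilin, had 7.06 FPKM in the Aire-KO library and 5.23 FPKM in the WT library (0.43, 0.30 to 0.57).

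The other endosomal receptor genes had lower values in the Aire-KO library, none by the 2-fold rule. Tlr3 (chr8:45395665-45410539), the receptor for double-stranded RNA, had 2.64 FPKM in the Aire-KO library and 4.38 FPKM in the WT library (log2 ratio -0.73, -0.88 to -0.58). Tlr13, which recognises bacterial ribosomal RNA, had 0.518 FPKM in the Aire-KO library and 0.623 FPKM in the WT library, with an interval that spans 0 (-0.65 to 0.13). The RNA receptor genes Tlr7 (0.0356 FPKM in the Aire-KO library and 0.0701 FPKM in the WT library) and Tlr8 (0.0494 FPKM and 0.199 FPKM) and Tlr11, the partner of Tlr12 in profilin sensing (0.0121 FPKM and 0.0489 FPKM), were below the minimum.

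The upstream windows of Tlr9, the TLR gene that was higher, and Tlr2, 1 of 2 surface receptor genes that were lower, are shown. They are again from RefSeq on GRCm38.p6 and 5′ to 3′ on the strand of the gene. Capitals mark TGANTCA, the core of an AP-1 site, in Tlr9 (plus strand) and GGGA and CC with any 4 bases between them, a kappaB-type motif that here matches on both strands at 1 place, in Tlr2 (minus strand).
Tlr9, chr9:106222448-106222597: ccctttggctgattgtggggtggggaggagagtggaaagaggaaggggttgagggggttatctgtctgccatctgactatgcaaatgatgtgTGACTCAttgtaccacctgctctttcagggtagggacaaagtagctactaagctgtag
Tlr2, chr3:83841609-83841858: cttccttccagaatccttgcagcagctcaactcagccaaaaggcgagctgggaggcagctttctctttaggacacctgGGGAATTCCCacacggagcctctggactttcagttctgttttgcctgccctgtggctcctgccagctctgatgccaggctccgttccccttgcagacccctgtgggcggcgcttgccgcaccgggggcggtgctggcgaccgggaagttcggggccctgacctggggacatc
The 250 bases upstream of the RefSeq start held 0 CpG dinucleotides for Tlr9 and 11 for Tlr2. The window of Tlr5, the other surface receptor gene that was lower, held 4. In GENCODE the Tlr2 transcript starts at position 83841767, inside the Tlr2 window. Most of that window, with most of its CpG dinucleotides, is therefore not upstream of the GENCODE start. The counts of 0 for Tlr9 and 11 for Tlr2 thus do not compare like stretches. For 33 of the receptor genes the RefSeq table gave 41 upstream windows, with a median of 3 CpG dinucleotides (0 to 12), beside a median of 6 over all 32851 windows. None was found in 8 windows of 6 genes: Naip2 and Tlr9 (higher), Naip6 (lower), Nlrp1b (neither), and Nlrp4b and Nlrp4e (below the minimum). Some windows of a gene overlap, so the genes are counted too. TGANTCA was found in 5 of the 41 windows (12.2%), from 4 genes, and in 6.75% of all windows, and the kappaB-type motif in 6 (14.6%), from 6 genes, and in 17.6%, on either strand. TTCNNNGAA, the form of a STAT site, was in 7 windows (17.1%), from 6 genes, and 7.02% of all, on either strand. The interferon-type motif, GAAA repeated after any 2 bases, was in 2 (4.88%) and 2.98%, and TATAAA, on the gene's own strand, in 1 (2.44%) and 7.59%. These are matches of letters, not binding sites.

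Genes that carry TLR signals were mostly level. Of 17 adaptor and kinase genes 1 was lower and 1 higher, and the median log2 ratio was 0.08. Myd88, the adaptor of most TLRs, had 16.4 FPKM in the Aire-KO library and 26 FPKM in the WT library, and Ticam1, which encodes TRIF, 10.6 FPKM and 13.1 FPKM. Ticam2, the bridging adaptor of TLR4, was higher at 3.43 FPKM in the Aire-KO library and 1.32 FPKM in the WT library. Pik3ap1, the PI3-kinase adaptor, was lower at 1.20 FPKM in the Aire-KO library and 3.67 FPKM in the WT library.

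Of 13 measured genes in a list of co-receptors, chaperones, trafficking factors and related proteins, 5 were lower and 1 higher, with a median log2 ratio of -0.35. Not every gene of the list has a shown part in TLR function. Cd14, which hands lipopolysaccharide to TLR4, had 5.57 FPKM in the Aire-KO library and 59.9 FPKM in the WT library. The scavenger receptor gene Cd36, a helper of TLR2, had 0.455 FPKM in the Aire-KO library and 4.09 FPKM in the WT library. Also lower were Ly86 (0.558 FPKM and 2.95 FPKM), Lrrc32 (0.243 FPKM and 1.91 FPKM) and the lipopolysaccharide-binding protein gene Lbp (3.33 FPKM and 6.80 FPKM, in the same order). Ly96, the MD-2 subunit of the TLR4 complex, lay just short of the rule at 7.59 FPKM in the Aire-KO library and 14.9 FPKM in the WT library. By contrast Unc93b1, which carries TLR9 and other nucleic acid sensors to endosomes, had 57.8 FPKM in the Aire-KO library and 46.5 FPKM in the WT library. Hsp90b1, the chaperone of most TLRs, was higher at 1034 FPKM in the Aire-KO library and 337 FPKM in the WT library.

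On the NOD side, 2 of 11 measured genes were lower and 1 higher, with a median log2 ratio of 0.04. Ripk2 had 18.8 FPKM in the Aire-KO library and 19.1 FPKM in the WT library. Slc15a1, an intestinal transporter that can import a NOD ligand, was lower at 0.244 FPKM in the Aire-KO library and 2.9 FPKM in the WT library. Tnfaip3, the A20 brake on NF-kappaB, was lower as well, at 23.5 FPKM in the Aire-KO library and 55.2 FPKM in the WT library. Erbb2ip, which encodes the NOD2-binding protein erbin, was higher at 52.8 FPKM in the Aire-KO library and 24.7 FPKM in the WT library.

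**Figure D5:**
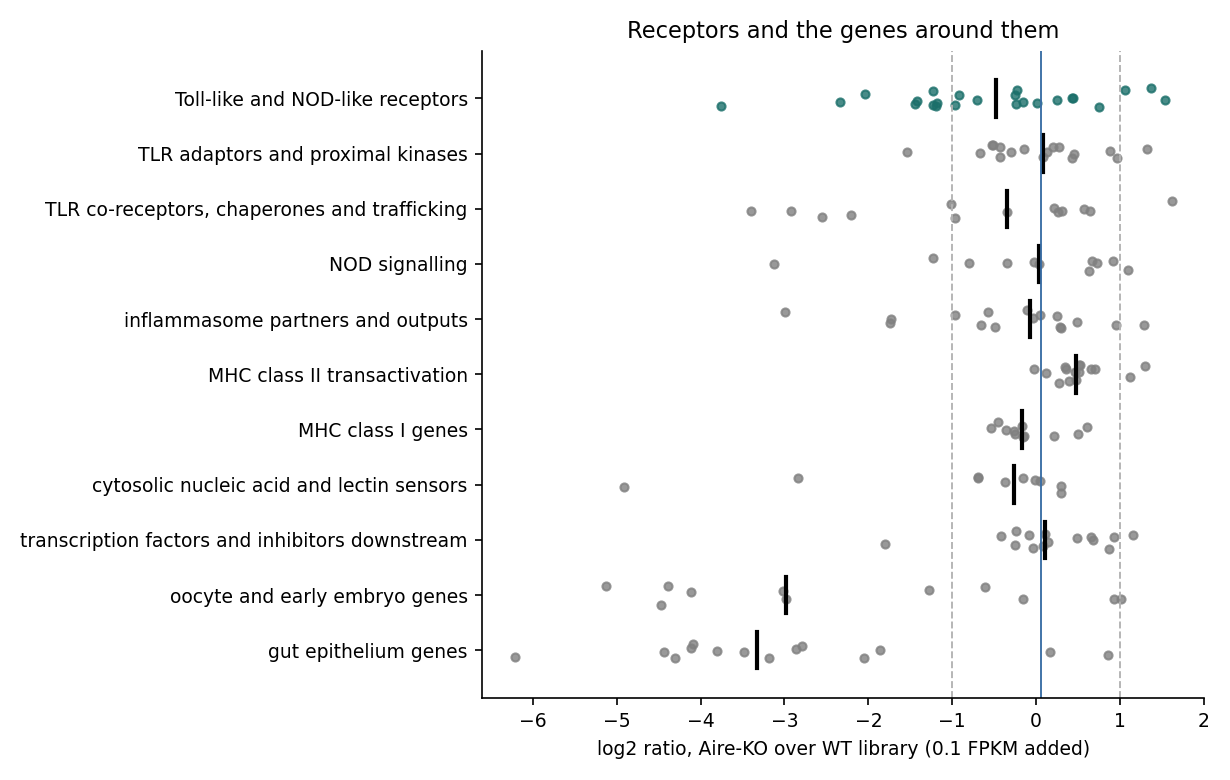
log2 ratio, Aire-KO over WT library with 0.1 FPKM added, of each gene with a mean of 0.5 FPKM or more in the receptor set and 10 lists around it. Black bars are list medians, dashed lines mark 2-fold and the blue line is the median of all genes (0.05). The receptor median is -0.48, and the oocyte and gut lists lie farthest to the left at -2.98 and -3.33. Some genes in the receptor set and the lists passed the minimum only through the WT library.

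Many of these receptors are also known from myeloid cells and B cells, so markers of cells that a thymic sort could hold are given beside them. Of 10 measured dendritic cell and macrophage markers 6 were lower and none higher, with summed FPKM over 16 listed rows of 520.7 in the Aire-KO library and 761.6 in the WT library. Most of that sum was Lyz2, and without it the sums were 84.3 FPKM in the Aire-KO library and 86.1 FPKM in the WT library. Cd68 had 33.1 FPKM in the Aire-KO library and 24.1 FPKM in the WT library, Batf3 28.2 FPKM and 16.4 FPKM, and Zbtb46 15 FPKM and 9.13 FPKM. Itgam had 0.614 FPKM in the Aire-KO library and 9.40 FPKM in the WT library, Csf1r 2.75 FPKM and 6.77 FPKM, and Fcgr1, below the minimum, was listed at 0 in the Aire-KO library and at 0.0966 FPKM in the WT library. All 5 measured neutrophil and monocyte markers were lower, with summed FPKM over 8 rows of 7.06 in the Aire-KO library and 152.6 in the WT library, and Elane was listed at 0 in the Aire-KO library. Of these 5, Mpo, Ly6c2 and Ngp had Aire-KO values below 0.5 FPKM and passed the minimum only through the WT library. The same was true of the lower markers Itgax, Emr1, Cd79a and Cdh5 of the other cell types, so these calls give no support of their own. Siglech, a marker of plasmacytoid dendritic cells, which are rich in Tlr7 and Tlr9, stood at 0.0580 FPKM in the Aire-KO library and 0.115 FPKM in the WT library. B cell markers summed to 73.3 FPKM in the Aire-KO library and 96.5 FPKM in the WT library over 8 rows, with 2 of 8 lower and 1 higher. Fcer2a alone gave 13.1 FPKM and 42.9 FPKM of these sums. By value 5 of the 8 markers were higher in the Aire-KO library and 3 lower, with a median log2 ratio of 0.14. Thymocyte markers summed to 72.9 FPKM in the Aire-KO library and 57.0 FPKM in the WT library over 11 rows, of which Tcf7 alone gave 51.6 FPKM and 21.6 FPKM. Without Tcf7 they summed to 21.2 FPKM in the Aire-KO library and 35.4 FPKM in the WT library, and 3 of 9 measured were lower and none higher. Fibroblast and endothelial markers summed to 27.5 FPKM in the Aire-KO library and 36.8 FPKM in the WT library over 8 rows (2 of 6 lower). The part of such cells in the values of Tlr2, Tlr4, Tlr5, Cd14, Tlr9 and the other receptors was not tested.

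In the authors' deposited table none of the 43 genes had a q-value under 0.05, and the smallest was 0.125, for Nlrp4a and Nlrp14. The authors' deposited table gave 6 of them an unadjusted p-value under 0.05. Those values compare 2 libraries and not 2 genotypes.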

How the data were processed

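One Aire-KO and 1 WT library of pooled, sorted mTECs were compared. The submitters' processing notes name TopHat2, Cuffdiff and the build mm10, without versions, annotation release or strand setting. The authors deposited FPKM per gene and per isoform. A p-value and a q-value by the authors stand beside them in the deposited files. Here 5 gene rows without an estimate were set aside, and each of the 43 gene values lay within 1 percent of its summed isoforms. Depth was estimated from 9517 single-isoform transcripts of 2000 bp or more, with GENCODE lengths less 210 bp (Aire-KO) and 200 bp (WT). Of 462 and 190 values of up to 5 fragments, 78.1% and 75.8% lay within 0.1 of a whole number, a step fitted to these same values. Fragments could be estimated for 41 members, and the totals are approximate. Intervals are exact conditional binomial (95%, scipy 1.17.1), and PCR reads without molecular identifiers are not independent molecules. The interval, the 2-fold rule and the depth estimate were tested on simulated data. Every member is accounted for, and under the rule for listed genes, those past the 2-fold rule, the 3 most expressed and the defining markers could be named, and only some of these were. Listed genes outside it, such as Myd88, Ripk2, Rfx5 and Clec7a, were named for their role after their values were seen. Members and lists were chosen with earlier results of these data known. Alternatives covered the pseudocount, minimum, threshold, scaling, source table and gene copies.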

Additional observations from a re-analysis of the deposited data

How the results depend on the processing

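The counts of 9 lower and 3 higher receptor genes did not change with a pseudocount of 0.01 FPKM, with gene values rebuilt from isoforms, with rows of status OK only or with an added counting interval. A smaller pseudocount only widens ratios, and the rebuilt values and the status filter left the values of the called genes nearly as they were. These 3 settings could therefore remove no call, and the unchanged counts under them give no support. With a pseudocount of 1 FPKM 3 were lower (Naip1, Naip5 and Nlrp6), beside 15.2% of all genes. Without a minimum 19 of 42 were lower and the median log2 ratio was -0.94, beside 25.3% and -0.07 for all genes. At a minimum mean of 2 FPKM 4 of 17 were lower and the median was -0.24, beside 14.3% and 0.13. Without the copies of Naip, Nlrp1, Nlrp4 and Nlrp9 5 of 17 were lower and the median was -0.25, beside 20.5% and 0.05. A 4-fold threshold left 3 lower (Naip1, Naip6 and Nlrp6) and 0 higher, beside 11.9% and 0.629% of all genes. Under each of 3 scalings 10 were lower, with Nlrx1 added at -1.04 to -1.0, and scaling to the same summed FPKM took Ciita under the rule at 0.99. The direction of a called gene could not change under these settings. The largest scaling factor was -0.08 on the log2 scale, and the other settings keep the sign of a difference. With 5 FPKM or more required in both libraries, 0 members had an isoform share shift of 25 points, instead of 1. For the genes of the lists, 24 to 39 were lower and 6 to 8 higher over the pseudocounts, minimums and scalings. No paired analysis was possible because each genotype has 1 library. Depth limits the genes under 0.5 FPKM, which rest on an estimated 57 fragments or fewer in each library where fragments could be estimated.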

Other observations

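Other cytosolic and lectin sensors of microbes, which the receptor set does not hold, were mostly level. Of 10 measured, 2 were lower and none higher, and the median log2 ratio was -0.27. Tmem173, which encodes STING, had 111 FPKM in the Aire-KO library and 112 FPKM in the WT library, and Ddx58, which encodes RIG-I, 5.57 FPKM and 6.22 FPKM. The lower genes were lectin genes known from dendritic cells and macrophages, Clec4n (0.172 FPKM in the Aire-KO library and 1.85 FPKM in the WT library) and Cd209a (listed at 0 in the Aire-KO library and at 2.91 FPKM in the WT library). Clec7a, the receptor for fungal beta-glucan, had 5.31 FPKM in the Aire-KO library and 4.30 FPKM in the WT library.

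Among 15 transcription factors and inhibitors downstream of the receptors, 1 was lower and 1 higher, with a median log2 ratio of 0.10. Irf7, which relays endosomal TLR signals to interferon genes, had 33.8 FPKM in the Aire-KO library and 118 FPKM in the WT library. Irf8 had 328 FPKM in the Aire-KO library and 147 FPKM in the WT library. Relb, which mTECs need for their development, had 232 FPKM in the Aire-KO library and 127 FPKM in the WT library, a log2 ratio of 0.87.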
